A study of Mus musculus with 24 samples.

Results

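Transcripts of 10 immediate early genes outside the AP-1 family were followed in primary fibroblasts of mouse embryos (MEFs, cultured straight from embryonic tissue) with and without the cytosolic DNA sensor cGAS. The genes were chosen by name: Egr1, Egr2, Egr3, Nr4a1, Nr4a2, Nr4a3, Ier2, Ier3, Zfp36 and Dusp1, 10 of the 45706 genes in the gene table. RNA sequencing covered wild type (WT) cells and cells lacking cGAS, whose gene is Mb21d1 (cGAS KO), all labelled as strain C57B1/6 and cultured under 20% oxygen. Each genotype was sampled on days 33, 36 and 42 of culture, at passages 11, 12 and 14. The labels number the 4 deposited columns of each such group as replicates. These columns showed no difference beyond the noise of sampling and were added up as 1 sample. This left 6 libraries, 1 per genotype and day and 3 per genotype. The labels do not say how many embryos or cultures stand behind a genotype, so the p-values below speak only of the spread among these 6 libraries, and that spread may be technical. The series title concerns cGAS in senescence, a permanent exit from the cell cycle.

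Immediate early genes are transcribed within minutes of a growth factor, stress or calcium signal without new protein synthesis, and most of their mRNAs decay quickly. In fibroblasts the signal commonly runs from receptors through the MAP kinases to serum response factor (SRF) at CArG boxes and to CREB-family factors at cAMP response elements. Among the genes described, the Egr genes encode zinc finger transcription factors, the Nr4a genes encode orphan nuclear receptors, Zfp36 encodes tristetraprolin, which destabilises AU-rich mRNAs, and Dusp1 encodes a phosphatase that inactivates MAP kinases. Ier2 and Ier3 encode small growth factor-inducible proteins, and the product of Ier3 is known to modulate survival and ERK signalling.

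Sequence before the transcription start is shown for members with a window in the RefSeq promoter table (build GRCm38.p6), because it carries the elements named above. Windows of 250 bases before a start were found for 7 of the 10 members, 11 windows in all, and none was found for Egr1, Egr3 and Ier2. Capitals mark CArG boxes and the core of the cAMP response element, TGACG, on either strand, where it reads CGTCA on the strand printed. Sequences run 5′ to 3′ on the gene's strand, and their labels count bases before the start.
Nr4a1 (250 to 1, chr15:101266596-101266845, plus strand): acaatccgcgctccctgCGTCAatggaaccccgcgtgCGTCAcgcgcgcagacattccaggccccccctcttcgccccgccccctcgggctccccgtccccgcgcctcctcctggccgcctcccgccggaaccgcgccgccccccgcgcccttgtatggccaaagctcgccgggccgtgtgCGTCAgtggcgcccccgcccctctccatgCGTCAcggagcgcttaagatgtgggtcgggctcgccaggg
Nr4a2 (250 to 1, chr2:57124004-57124253, minus strand): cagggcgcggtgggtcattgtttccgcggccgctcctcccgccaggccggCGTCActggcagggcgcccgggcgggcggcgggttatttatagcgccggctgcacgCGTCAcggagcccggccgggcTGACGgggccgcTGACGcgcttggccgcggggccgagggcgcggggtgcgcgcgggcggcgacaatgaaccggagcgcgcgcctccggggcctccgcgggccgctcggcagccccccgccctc
Nr4a3 (250 to 153, chr4:48045055-48045152, plus strand): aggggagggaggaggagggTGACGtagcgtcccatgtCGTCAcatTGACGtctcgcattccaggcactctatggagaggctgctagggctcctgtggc
Dusp1 (200 to 130, chr17:26508602-26508672, minus strand): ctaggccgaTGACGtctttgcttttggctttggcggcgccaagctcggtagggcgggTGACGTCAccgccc
Egr2 (80 to 51, the third start, chr10:67537789-67537818, plus strand): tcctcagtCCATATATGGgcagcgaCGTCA
Zfp36 (66 to 41, chr7:28379269-28379294, minus strand): aggccgccCCATAAAAGGagaaagct
Nr4a1, Nr4a2 and Nr4a3 each held 4 matches to TGACG within 250 bases, a number reached by 0.137% of 32851 windows of that length in the table. The fourth match of Nr4a3, at 147 to 143, lies outside the stretch printed. Any match to TGACG was present in 17.8% of windows. Dusp1 held the full palindrome TGACGTCA 143 to 136 bases before its start, which counts as a TGACG match on each strand, and a further TGACG at 191 to 187. That palindrome was present in 1.55% of windows. A CArG box was found 72 to 63 bases before the third start of Egr2 and 58 to 49 bases before that of Zfp36, against 1.47% of windows. The Ier3 window held neither element. These matches describe letters in the windows and not factor binding.

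The libraries held 25651250 to 48717439 counts. Mb21d1 was at 168 to 222 counts in WT and 0.459 to 7.78 in KO, which matched the labels. Xist was at 2.07 to 17.0 counts in WT and 12460 to 25270 in KO, and the Y-linked gene Uty at 1073 to 1498 in WT and 77.8 to 106 in KO, so that the sex of the embryos and the genotype cannot be told apart. Of 12 fibroblast markers, Col1a1 was at 6971 to 10290 CPM (counts scaled to a common library total with edgeR's TMM factors). The list's median log2 fold change of KO over WT was, however, -0.85. On day 42, 6 of the 12 were at least 2-fold lower in KO, against 6.5% of genes reaching 5 CPM. By edgeR 7 of the 12 had an unadjusted p below 0.05, against 27.3% of all genes. It called 1, S100a4, lower, against 4.65%. The part of these markers in the genotype comparisons was not tested. The 7 endothelial markers summed to 6.87 to 15.1 CPM and the 7 epithelial markers to 25.2 to 65.1. The 7 skeletal muscle markers summed to 506, 655 and 352 CPM in WT on days 33, 36 and 42 and to 340, 323 and 202 in KO. Nearly all of this was Acta1, at 350.1 to 652.8 CPM in WT and 201.4 to 332.5 in KO, and its part in the comparisons was not tested. As a sum, macrophage markers were lower on later days. The 16 in the table summed to 121, 27.1 and 9.85 CPM in WT on days 33, 36 and 42 and to 59.4, 8.69 and 7.15 in KO. C1qc, a defining macrophage gene, was at 0 CPM in KO on days 36 and 42, but others of the list were not. On those days Cd14 was at 2.80 and 2.08 CPM in KO, Ptprc at 2.01 and 1.77, Cd68 at 1.79 and 1.27 and Csf1r at 1.57 and 1.72.

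Per unit of length, Ier3, Dusp1, Egr1, Nr4a1, Zfp36 and Ier2 were the abundant members and Egr2, Egr3, Nr4a2 and Nr4a3 the scarce ones. Averaged over the 6 libraries, the authors' deposited RPKM value (reads scaled to gene length and library total) was 27.1 ± 10.4 for Ier3, 25.2 ± 14.1 for Dusp1 and 24.9 ± 10.5 for Egr1 (SD, n = 6). Nr4a1 stood at 22.7 ± 12.8 RPKM, Zfp36 at 22.0 ± 13.4 and Ier2 at 15.1 ± 7.60. Neighbours among these 6 differed by less than their spread. The scarce members were at 2.39 ± 1.29 RPKM for Egr2, 1.79 ± 0.57 for Egr3, 1.4 ± 0.41 for Nr4a2 and 0.32 ± 0.15 for Nr4a3. Within the Nr4a family the mean level of Nr4a1 thus lay above those of its relatives in these fibroblasts, and Nr4a3 was the lowest of the 10 members, below Nr4a2 by more than their spread. Egr2, Egr3 and Nr4a2 differed by less than the spread of Egr2. All 10 members passed the filter on low counts.

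The first question was how the members moved with time in culture. Transcripts of most members were lowest on day 42 in both genotypes. For 7 of 10 members (Egr1, Nr4a1, Nr4a3, Ier2, Ier3, Zfp36 and Dusp1) both day 42 libraries lay below all 4 earlier libraries, against 10.8% of the 17233 genes tested. The exceptions were Egr2, Egr3 and Nr4a2. The comparison by order of libraries was added after the values were seen. In bulk RNA, fewer cells with a transcript and less transcript per cell cannot be told apart. The plot of CPM by day shows each library.

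**Figure D1:**
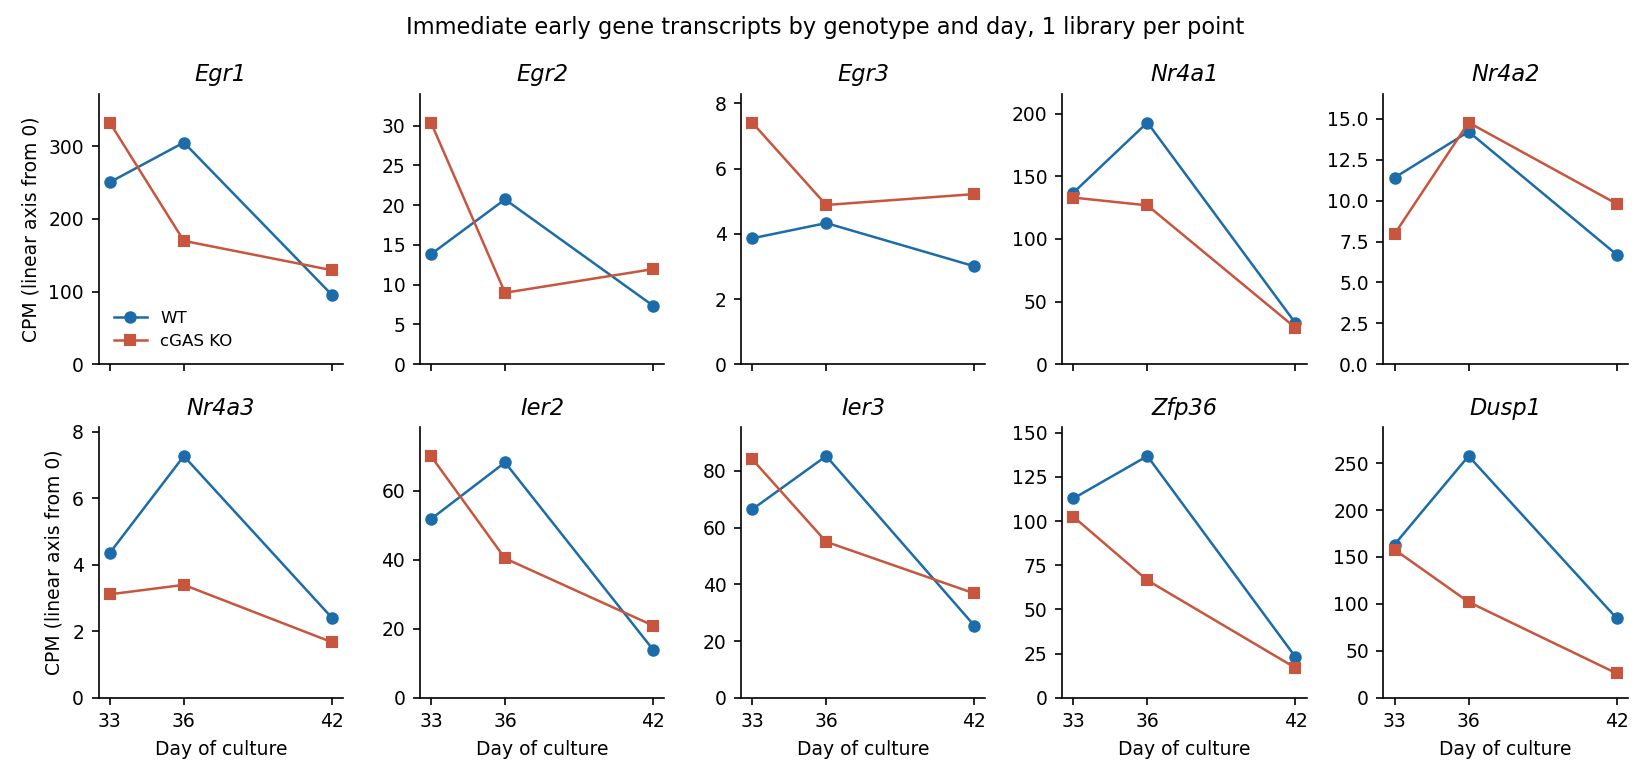
CPM (linear axis from 0) of each member against the day of culture, 1 point per library, circles for WT and squares for cGAS KO. On day 42 the points of Nr4a1 (32.9 and 29.1 CPM) and Zfp36 (23.1 and 17.0 CPM) lie far below the earlier days, and in WT the highest point of every member is day 36.

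Coordinates are those of the deposited table (mm10), in which the start of 8 members lies 2 bases before that of GENCODE M21, and all 10 are protein-coding genes there. For Egr3, Nr4a1, Zfp36 and Dusp1 the span in GENCODE M21 is longer than the deposited one. Nr4a1 (chromosome 15, 101266844 to 101274792, plus strand), which encodes the nuclear receptor Nur77, was at 137, 193 and 32.9 CPM in the WT libraries of days 33, 36 and 42 and 133, 127 and 29.1 in those of KO. The 2 day 42 libraries were close to each other and far below the other 4. Between days 36 and 42 the level was 5.87-fold lower in WT (95% counting interval 5.52 to 6.25) and 4.36-fold lower in KO (4.07 to 4.66). These and all later intervals cover counting error only, since each is a ratio of 2 libraries. Nr4a3 (chromosome 4, 48045151 to 48086447, plus strand) was far scarcer, at 4.35, 7.26 and 2.41 CPM in the WT libraries and 3.11, 3.39 and 1.67 in those of KO. Its lowest value in each genotype was also day 42. Nr4a2 (chromosome 2, 57106828 to 57124003, minus strand), which in other settings is known for its role in dopamine neurons, was at 11.4, 14.2 and 6.70 CPM in the WT libraries and 7.95, 14.8 and 9.81 in those of KO. Its KO values peaked on day 36, and its day 42 value in KO lay above that of day 33.

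Zfp36 (chromosome 7, 28376782 to 28379255, minus strand) was at 113, 137 and 23.1 CPM in the WT libraries and 103, 66.5 and 17.0 in those of KO. Its 2 day 42 libraries were the lowest, by 5.92-fold in WT (5.50 to 6.38) and 3.92-fold in KO (3.59 to 4.29) against day 36. An antisense gene, Gm44710, overlaps Zfp36 in GENCODE M21, and reads of the pair cannot be told apart unless the counting used the strand. The libraries were stranded, but no source used here gives the strand setting of the counting. Dusp1 (chromosome 17, 26505588 to 26508519, minus strand) was at 163, 258 and 84.8 CPM in the WT libraries and 158, 102 and 26.1 in those of KO. The genotypes started from nearly the same level on day 33 and were apart on both later days. The highest and lowest Dusp1 libraries, WT day 36 and KO day 42, differed 9.89-fold, the widest range of the 10 members.

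Egr1 (chromosome 18, 34859821 to 34864984, plus strand) was at 250, 305 and 95.5 CPM in the WT libraries and 333, 170 and 130 in those of KO. Both day 42 libraries were lowest, and the KO library of day 36 was already far below that of day 33. Egr2 (chromosome 10, 67535473 to 67542188, plus strand), which also acts in hindbrain and Schwann cell development, was at 13.8, 20.7 and 7.36 CPM in the WT libraries and 30.4, 8.99 and 12.0 in those of KO. Its KO level was 3.38-fold lower on day 36 than on day 33 (2.93 to 3.91) and 1.33-fold higher on day 42 than on day 36 (1.14 to 1.56). Egr3 (chromosome 14, 70077443 to 70080157, plus strand) was at 3.86, 4.33 and 3.01 CPM in the WT libraries and 7.42, 4.89 and 5.22 in those of KO, and its highest library was 2.47-fold above its lowest, the smallest such range of the 3 Egr genes. Ier2 (chromosome 8, 84661329 to 84662852, minus strand) was at 51.8, 68.2 and 14.0 CPM in the WT libraries and 70.0, 40.4 and 20.9 in those of KO. Its lowest libraries were those of day 42. Ier3 (chromosome 17, 35821682 to 35822923, plus strand) also had its lowest libraries on day 42, at 66.4, 85.2 and 25.5 CPM in the WT libraries and 84.1, 55.0 and 36.8 in those of KO.

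The steps between days were then read within each genotype. In WT all 10 members were highest on day 36 and lowest on day 42, an order shown by 25.8% of all genes tested. In KO, Egr1, Nr4a1, Ier2, Ier3, Zfp36 and Dusp1 were highest on day 33 and lowest on day 42, an order shown by 20.8% of genes. From day 33 to day 36 the median member was higher by 0.38 log2 units in WT and lower by 0.62 in KO, where the median of genes reaching 5 CPM was 0.01 in each. Over that step 0 members were 2-fold higher or lower in WT (0.326 and 0.995% of genes), and in KO 0 were higher and 1, Egr2, was lower (1.08 and 2.33% of genes). From day 36 to day 42, 9 of the 9 members reaching 5 CPM were at least 2-fold lower in WT, against 2.48% of such genes, and the tenth, Egr3, was 1.44-fold lower. Scaled by library totals alone, 8 members were past 2-fold over that WT step, without Nr4a2. In KO 3 of 9 were at least 2-fold lower (Nr4a1, Zfp36 and Dusp1), against 0.483% of genes. A 2-fold higher level on day 42 was found for 0 members in either genotype, against 4.37% of genes in WT and 0.414% in KO. Against day 33 the day 42 level was at least 2-fold lower for 5 members in WT (2.07% of genes) and 7 in KO (2.61%), and 2-fold higher for 0 (3 and 1.45% of genes). These steps compare single libraries and carry no p-value.

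**Figure D2:**
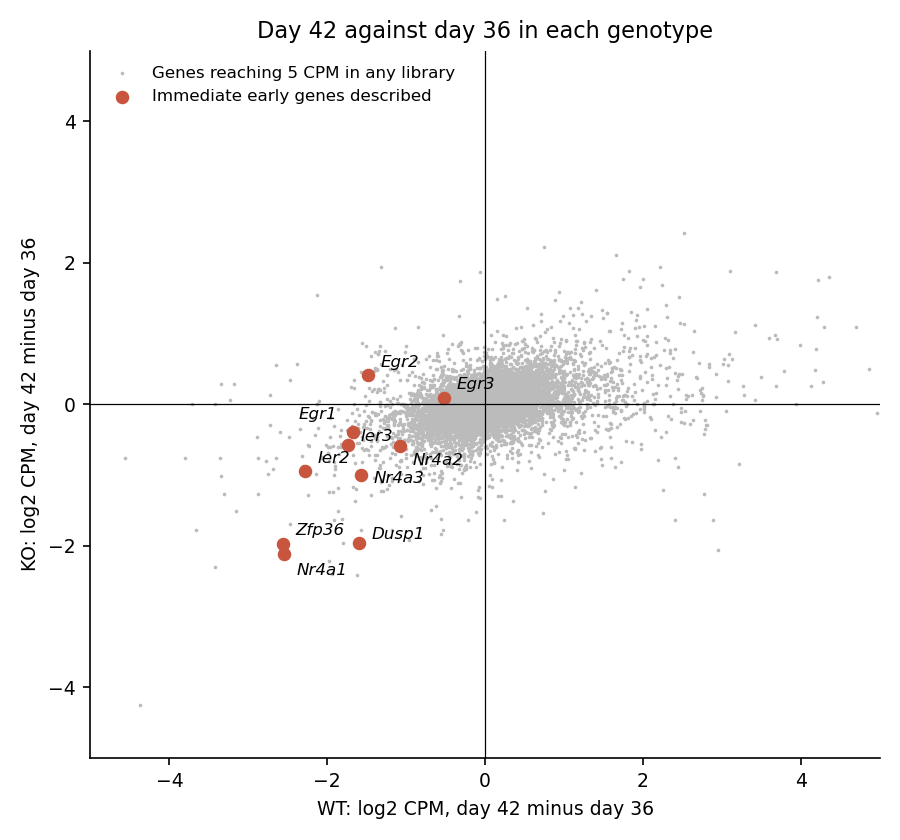
Log2 CPM on day 42 minus day 36 in WT (x axis) and in KO (y axis), for the members (large points) and for genes reaching 5 CPM in any library (12327 genes, small points, of which 5 lie beyond the axes). Zfp36 and Nr4a1 lie at the lower left, at -2.56 and -2.55 in WT and -1.97 and -2.12 in KO, and Egr2 lies above 0 in KO.

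Over both genotypes, edgeR's quasi-likelihood test of day called 0% of the 17233 genes at an adjusted p below 0.05 and 0 of the 10 members. At an unadjusted p below 0.05 it found 7 of 10 members against 9.59% of all genes, the same 7 as by the order of the libraries. Test and order read the same 6 libraries, so their match is not separate support. All 7 were lower on day 42 than on day 33, against 4.93% of genes with both properties. DESeq2 called 2.03% of 17717 genes by day and 6 of 10 members: Egr1, Nr4a1, Ier2, Ier3, Zfp36 and Dusp1. In the edgeR fit the log2 change from day 33 to day 42 was -2.45 for Zfp36 (adjusted p = 0.432), -2.13 for Nr4a1 (0.310), -1.81 for Dusp1 (0.479) and -1.80 for Ier2 (0.450). It was -1.37 for Egr1, -1.27 for Ier3, -1.17 for Egr2, -0.87 for Nr4a3, -0.44 for Egr3 and -0.24 for Nr4a2. The number of members with an unadjusted edgeR p below 0.05 went from 3 without the WT library of day 42 to 8 without that of WT day 33. Macrophage markers moved with the day as well, and their part in the result was not tested. From day 33 to day 36 their sum went from 121 to 27.1 CPM in WT, where all 10 members were higher, and from 59.4 to 8.69 CPM in KO, where 8 of 10 were lower.

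The design also asks whether the members differed between the genotypes. Over the 3 days 0 of 10 members passed edgeR's test of KO against WT, where 8.72% of all genes did (4.07% higher and 4.65% lower in KO). At an unadjusted p below 0.05 the test found 1 member, Egr3, against 27.3% of all genes, and DESeq2 likewise called 0. Egr3, at 3.73 ± 0.67 CPM in WT and 5.84 ± 1.37 in KO (SD, n = 3), had a log2 fold change of KO over WT of 0.64 ± 0.23 (SE) with an adjusted p of 0.128 by edgeR. It was the only member whose 3 KO libraries all lay on one side of the 3 WT libraries, an order shown by 34.3% of genes. The log2 fold change was -0.82 ± 0.67 for Dusp1 (adjusted p = 0.479), -0.79 ± 0.45 for Nr4a3 (0.317), -0.55 ± 0.80 for Zfp36 (0.701) and -0.33 ± 0.75 for Nr4a1 (0.820), all by edgeR. For Egr1 it was -0.04 ± 0.50, for Egr2 0.29 ± 0.55, for Nr4a2 0.01 ± 0.33, for Ier2 -0.03 ± 0.64 and for Ier3 -0.01 ± 0.48. These SEs allow differences of either sign for most members. With day as a further factor the SEs of Zfp36, Nr4a3 and Dusp1 narrowed, to -0.54 ± 0.19, -0.71 ± 0.20 and -1.03 ± 0.36, and edgeR called 0 members (adjusted p = 0.155, 0.0962 and 0.159) against 7.76% of genes. In that fit 4 members had an unadjusted p below 0.05, Egr3 among them, against 28.7% of genes.

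Day by day, the genotype difference changed sign for several members. On day 33 Egr2 was 2.2-fold higher in KO (1.99 to 2.43), the 1 member at least 2-fold higher, against 2.47% of genes reaching 5 CPM, and 0 members were 2-fold lower, against 4.1%. Egr3 was 1.92-fold higher in KO on that day (1.58 to 2.34), and Nr4a1 and Dusp1 were 1.03-fold lower, a sign that turned above 0 for both when scaled by library totals alone. Zfp36 was 1.1-fold lower. On day 36, 4 members were at least 2-fold lower in KO, against 4.67% of genes, and 0 were 2-fold higher, against 2.96%. These were Dusp1 by 2.52-fold (2.42 to 2.63), Egr2 by 2.31-fold (1.997 to 2.67), Nr4a3 by 2.14-fold (1.69 to 2.73) and Zfp36 by 2.06-fold (1.95 to 2.17). Scaled by library totals alone, Egr2 and Dusp1 stayed past 2-fold on day 36. On day 42 Egr1, Egr2, Egr3, Nr4a2, Ier2 and Ier3 were higher in KO, by 1.36- to 1.74-fold, and the other 4 were lower. Dusp1 was 3.26-fold lower in KO on day 42 (3.03 to 3.50), the 1 member past 2-fold lower, against 6.5% of genes, and 0 were 2-fold higher, against 3.03%. The share of counts from mitochondrially encoded genes was also lower in KO than in WT on each day, at 1.27, 0.694 and 0.889% against 1.88, 2.38 and 1.1%, and its part in these differences was not tested.

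**Figure D3:**
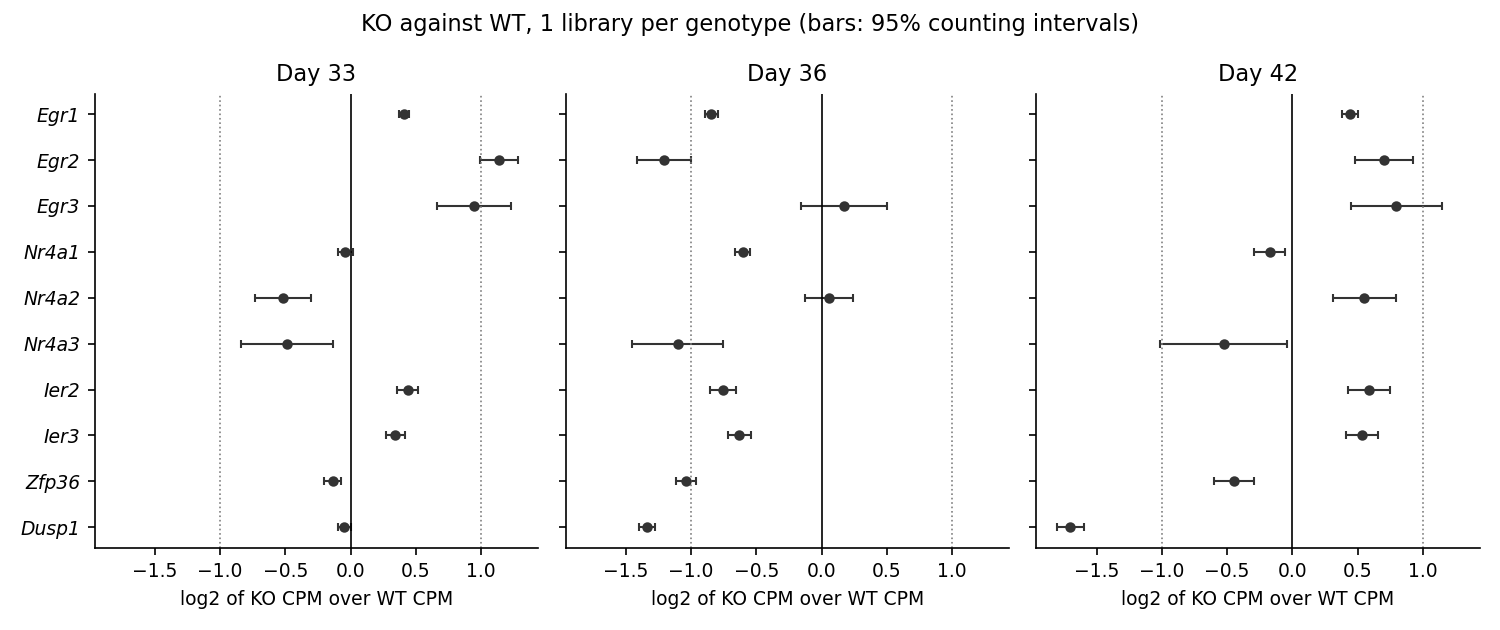
Log2 of KO CPM over WT CPM for each member on days 33, 36 and 42, with 1 library per genotype; bars are exact 95% counting intervals and dotted lines mark 2-fold. Egr2 lies to the right on day 33, to the left on day 36 and to the right again on day 42, and Dusp1 moves from near 0 on day 33 to 3.26-fold lower in KO on day 42.

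The pathway around these genes was read from gene lists. Of 36 other immediate early genes 35 were tested, and 23 had both day 42 libraries below the earlier 4, against the 10.8% of all genes. Their median log2 change from day 33 to 42 was -0.62, beside -1.32 for the 10 members and 0.00 for all genes tested. By day edgeR called 0 of them, and 16 had an unadjusted p below 0.05, against 9.59% of all genes. Per1 (a circadian clock repressor), Pim1 (a kinase) and Klf4 (a Krüppel-like factor) had the smallest such p and were chosen after their values were seen. Per1 was at 33.5, 48.0 and 24.1 CPM in the WT libraries and 33.5, 40.7 and 22.1 in those of KO. Unlike Egr1, Zfp36 and Dusp1, these 3 genes were highest on day 36 in KO too. Of the AP-1 genes, Fos was at 149, 190 and 9.08 CPM in the WT libraries and 191, 108 and 5.6 in those of KO, and Fosb at 54.8, 149 and 2.01 in WT and 76.3, 53.8 and 4.87 in KO. Junb was at 101, 160 and 18.0 CPM in the WT libraries and 114, 72.6 and 25.5 in those of KO, and Jun at 133, 137 and 70.1 in WT and 122, 70.8 and 79.2 in KO.

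**Figure D4:**
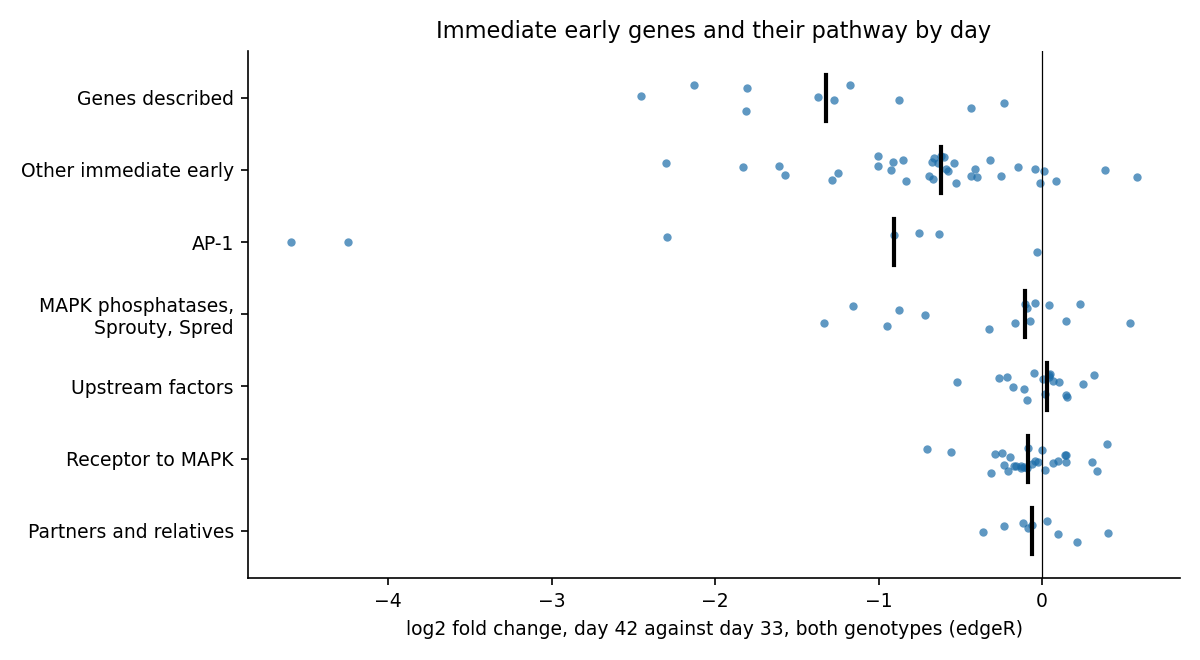
Log2 fold change from day 33 to day 42 in edgeR's fit over both genotypes, 1 point per tested gene of each list, with the list's median as a black bar (vertical jitter has no meaning). The medians are -1.32 for the genes described, -0.62 for other immediate early genes and -0.91 for AP-1 genes, and -0.10 to 0.03 for the other 4 lists.

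Lists of the signalling chain above these genes had medians close to that of all genes, and the difference from the members was not tested. Of 18 upstream factors and coactivators (SRF and its partners, CREB and MEF2 families) 2 had both day 42 libraries lowest, with a median change of 0.03. Of 28 genes from growth factor receptors to the MAP kinases 4 had that order, with a median of -0.09. The order was shown by 10.8% of all genes tested. Of 9 tested partners and relatives of the members, such as the EGR corepressors Nab1 and Nab2, 0 showed it. In all 3 lists edgeR called 0 genes between the genotypes, against 8.72% of all genes. Among 15 tested MAP kinase phosphatases, Sprouty and Spred genes, which restrain the same kinases as Dusp1, 3 had both day 42 libraries lowest. The share of all genes with that order was 10.8%. From day 36 to day 42 in WT, 5 of the 14 reaching 5 CPM were at least 2-fold lower, against 2.48% of genes. These were Dusp4, Dusp5, Dusp6, Dusp9 and Dusp10, and the list median was -0.58. In KO 0 of 15 were, against 0.483% of genes, with a median of -0.10. By day edgeR called 0 of the 15, and 5 had an unadjusted p below 0.05, against 9.59% of genes.

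Over the 3 days edgeR called 2 of the 15 tested genes of that inhibitor list higher and 2 lower in KO. The shares of all genes were 4.07 and 4.65%. The log2 fold change was 2.32 ± 0.38 for Dusp2 (adjusted p = 0.0205), a phosphatase relative of Dusp1 at 0.512 to 1.31 CPM in WT and 3.2 to 5.22 in KO, and 0.51 ± 0.10 for Dusp16 (0.0299), a JNK phosphatase. Spry1 and Spry4, inhibitors of receptor tyrosine kinase signalling, stood at -1.35 ± 0.26 (0.0316) and -0.57 ± 0.12 (0.0407) by edgeR. With day as a factor both Sprouty calls were lost (0.0619 and 0.0708). Of the 35 other immediate early genes tested, edgeR called 1 higher and 1 lower in KO, against the same 4.07 and 4.65% of genes. Arc, a cytoskeletal protein, was higher by 0.69 ± 0.14 (adjusted p = 0.0368 by edgeR). Tiparp, a mono-ADP-ribosyltransferase, was lower at -1.15 ± 0.16 (0.0127). Of 13 mRNAs known as targets of the Zfp36 protein 7 were tested. Against those same shares, edgeR called the cytokine Lif higher at 2.28 ± 0.22 (0.00857) and the chemokine Ccl2 lower at -2.45 ± 0.26 (0.00924). Calls were lost when a library was left out: edgeR called Arc in 0 of the 6 fits that left out a library, Spry1 and Spry4 in 1 each, Dusp16 in 2, Dusp2 in 3, Tiparp and Ccl2 in 4 and Lif in 5, its 1 loss being without KO day 36. DESeq2 called all 8 of these genes.

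Most of the members followed a similar pattern, with Egr3 and Nr4a2 the least like the rest. Over the 6 libraries, Ier2 and Ier3 had the highest correlation of log2 CPM of the 45 pairs (Pearson r = 0.998) and Egr3 and Nr4a3 the lowest (-0.10), with a median of 0.72. These values describe 6 points that share library, depth and day. Against the mean of the other 9, r was 0.80 or higher for Ier2, Zfp36, Ier3, Nr4a1, Egr1, Nr4a3 and Dusp1, and was 0.70 for Egr2, 0.48 for Nr4a2 and 0.35 for Egr3. Centred on each gene, the mean of the members was 0.36, 0.79 and -0.92 log2 units in WT on days 33, 36 and 42 and 0.56, 0.06 and -0.85 in KO. Of 10228 genes at a mean of at least 5 CPM with a gene name, those nearest to that pattern were Ap2s1 (r = 0.997), Rnf126, Pgam1, Junb, Senp2, Agap3, Lmna, Tsc22d2, Ppp1r13l and Rab10 (r = 0.988). Junb was the 1 listed immediate early or AP-1 gene among these 10. Ap2s1 had the same order of libraries with a far smaller range, at 63.9, 71.2 and 48.0 CPM in the WT libraries and 65.2, 59.6 and 48.7 in those of KO.

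The transcript table listed 27 transcripts of the members, and 5 members had a single one. Egr1 counts were nearly all assigned to the 3039-base transcript Egr1-202, at 99.2 to 99.7% in the 6 libraries, although the deposited gene length, which sets its RPKM, is 4486 bases. For Dusp1, 32.5 to 42.6% of the counts summed over its 3 transcripts were assigned to 2 that GENCODE M21 classes as retained intron. In WT this share was 42.6, 32.8 and 34.0% on days 33, 36 and 42 (exact 95% intervals 41.5 to 43.7, 32.0 to 33.7 and 32.4 to 35.7%). In KO it was 34.9, 32.5 and 39.6% (33.7 to 36.2, 30.8 to 34.3 and 36.7 to 42.6%). The share was highest in the WT library of day 33, at 163 CPM of Dusp1, and in the KO library of day 42, at 26.1 CPM. The Dusp1 transcript counts summed to more than the gene's own count in every library, at 8054 against 7650 in WT on day 33. They therefore overlap in part, which the intervals of the shares do not cover. The assignment was made by the authors' counting and its error is not known. Nr4a2 and Nr4a3 had 6 and 4 transcripts and few counts, 66 to 620 a library, so that no share is given for them. Egr2-201 and Egr2-202 carried identical values, so that the counts of that gene's transcripts overlap and no share is given.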

How the data were processed

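Poly(A)-selected, stranded RNA-seq libraries of WT and cGAS KO MEFs were analysed. Deposited by the authors were an estimated count for every gene and transcript, fractional and not normalized, and an RPKM value for every gene, per the file headers. The submitters' processing notes name Bowtie2 2.2.1, limma 3.18.13 and the build mm10, with no role stated. No source used here gives the counting program, the annotation or the strand setting. Another 24 per-sample columns of the transcript table were not used.

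Over genes with at least 80 counts, chi-square over its degrees of freedom averaged 0.832 to 0.843 among the 4 columns of a group, and 0.996 to 1.05 over genes above 10000 counts, against 12.8 to 67.0 between groups. The 4 were therefore summed, rounded to whole numbers and counted as 1 library. Tests used edgeR 4.0.16 in R 4.3.3 (TMM factors 0.927 to 1.08, filterByExpr, robust quasi-likelihood, Benjamini-Hochberg over 17233 genes, threshold 0.05), and were tested on simulated data. Other settings were limma-voom (limma 3.58.1), DESeq2 1.42.0, other scaling and filters, left-out libraries or columns, 24 separate columns and a replicate block. Single libraries were compared as CPM, with log2 values at a prior count of 2, a 2-fold minimum and 5 CPM in the higher library; ratios carry exact 95% intervals. Depth was 25651250 to 48717439 counts.

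Members and lists were chosen with earlier results of these data known. Planned for naming were the 10 members, up to 4 called genes per list and the 10 genes nearest the members' mean. Of the AP-1 genes, Fos, Fosb, Jun and Junb were planned. Per1, Pim1, Klf4, Dusp4, Dusp5, Dusp6, Dusp9 and Dusp10 were named for their values, and Nab1 and Nab2 as examples of their list. The order of libraries and the day 42 against 33 contrasts were added after the values were seen. Of the fibroblast markers edgeR called S100a4 lower in KO, at -0.92 ± 0.13 (adjusted p = 0.0133), a call kept in 3 of the 6 fits that left out a library. It called 0 genes of the macrophage (14 tested), endothelial (3), epithelial (5) and skeletal muscle (3) lists, and 0 of the 7 AP-1 genes. The share of all genes called was 8.72%. Unadjusted p lay below 0.05 for 0, 1, 1, 1 and 0 genes of these lists, against 27.3% of all genes.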

Additional observations from a re-analysis of the deposited data

Results flagged for a closer look

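Several members moved in opposite directions in the genotypes between consecutive days, with 1 library each, so that the difference between the genotypes was not tested. From day 33 to day 36 the log2 change in KO minus that in WT was -2.332 for Egr2, which went 1.50-fold up in WT and to 0.296 of its level in KO. It was -1.287 for Dusp1 (1.58-fold in WT, 0.646 in KO), -1.255 for Egr1 (1.22 and 0.510), -1.19 for Ier2 (1.32 and 0.577), -0.9721 for Ier3 (1.28 and 0.654) and -0.9015 for Zfp36 (1.21 and 0.649). For Nr4a1 it was -0.5637 (1.41 and 0.953), and the KO step of Nr4a1 turned to 0.003 on the log2 scale with library totals alone. From day 36 to day 42 Egr2 went to 0.355 of its level in WT and to 1.33-fold in KO, a difference of 1.896.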

How the results depend on the processing

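The count of genes called between KO and WT, 1503, was 2817 by DESeq2, 8173 with 24 separate columns, and 24 to 1811 when 1 library was left out, lowest without KO day 36. With library totals alone 61.7% of calls were higher in KO, against 46.6%, and the median log2 fold change of all genes moved from -0.01 to 0.11; between single libraries that scaling moved it by up to 0.17, for KO against WT on day 36. Fitting 24 columns, which measure sampling noise, called 3 members (Dusp1, Egr3 and Nr4a3), and with a replicate block it called 2 members (Egr3 and Nr4a3) and 7846 genes. Numbered columns share only a number, so no pairing was drawn. Members called stayed at 0 in the other fits between genotypes, and 34 of 180 values changed sign without a call.

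By day, the count of 0 genes was 359 by DESeq2, with 6 members called, and 0 to 3 when 1 library was left out; members called stayed at 0 in the other alternatives. The 7 members with both day 42 libraries lowest were 7 with library totals and 7 to 10 when 1 library was left out. Leaving out a library only relaxes this order and cannot lower the number, so that range is no check of it. Members at least 2-fold lower in KO on day 36 numbered 2 with library totals, against 4. With a minimum of 1 CPM, genes past 2-fold numbered 1311, 1518 and 1892 for KO against WT on days 33, 36 and 42, and 339 and 1449 for the WT steps and 799 and 277 for the KO steps. Across single-library contrasts of members, 467 of 490 values stayed within their counting interval. Depth limits Egr3 and Nr4a3, at 66 to 317 counts a library.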
